A study of Homo sapiens with 8 samples.

Results

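DNA repair and damage signalling genes were chosen by name from the list of m6A peaks, by symbols of the Fanconi anaemia, BRCA, RAD, XRCC, MSH, MLH, PMS, ERCC, PARP, ATM, ATR, CHEK, LIG and related families. The name pattern matched 138 peaks, of which 6 lay on 4 pseudogenes and were left out. The remaining 132 peaks, of 22626 in all, lay on 63 genes. By textbook role 56 of these genes act in repair, damage signalling or the PARP family. The other 7 were sorted apart as matched by name alone, a label used here that does not mean a gene has no part in repair. They are the cohesin subunit gene RAD21, the helicase genes RAD54L2, ERCC6L and ERCC6L2, EPM2AIP1, and the antisense genes MDC1-AS1 and RAD21-AS1.

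The peaks come from HCT116, a human colorectal cancer line. Control cells carried the hairpin labelled sh_NC (genotype label WT), and knockdown cells stably carried the hairpin labelled sh_AL1 against ALKBH5. ALKBH5 erases N6-methyladenosine, or m6A, a methyl mark on adenosines of RNA. Fragments of poly(A) RNA pulled down with an anti-m6A antibody (the IP) and fragments not so selected (the input) were sequenced, with 2 libraries in each of 4 groups. One hairpin label stands for the knockdown, and nothing in the labels says that the 2 libraries of a group came from separate cultures.

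m6A is written on nuclear RNA by the METTL3 and METTL14 complex, mostly in long exons and near stop codons, and its readers change the splicing, translation and decay of the transcript. DNA repair genes encode several machines: mismatch repair for replication errors, nucleotide excision for bulky lesions, recombination and end joining for double-strand breaks, and the ATM and ATR kinases that signal damage. HCT116 is known as a mismatch repair-deficient line.

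All values below are the authors' own, from a list of peaks for the whole series. Enrichment is the ratio of IP to input. The log2 fold compares the arms and comes with a false discovery rate (FDR); its numerator arm is unstated. A sign is therefore not read as more or less m6A in the knockdown, and m6A and transcript level cannot be told apart in a fold. The table holds 1 value per peak for all libraries together, so that no value has a replicate error and the depth is unknown. Whether replicate spread entered the FDR is unstated. ALKBH5 itself had 3 peaks and none was called, and the knockdown was not checked at the level of its transcript. Of 7 markers of colorectal epithelium 5 carried a peak (EPCAM, CDH1, CDX2, KRT8 and KRT18; 6 of their 12 peaks were called), as did 1 of 4 fibroblast, 1 of 3 leukocyte and 0 of 2 endothelial markers.

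Few peaks on DNA repair genes differed between the arms. A peak is called here at an FDR of at most 0.05 in the authors' deposited table. By this rule 4 of 132 member peaks (3.03%, exact Clopper-Pearson 95% interval 0.832 to 7.58, counting error only) were called, against 8.23% of all peaks. The interval treats peaks as independent, which peaks of the same gene and overlapping peaks are not. It takes no account of peak strength and is not a test against all peaks. The called peaks were 3 with a positive fold (5.74% of all peaks) and 1 with a negative fold (2.49% of all peaks). The calls described below lay on XRCC4 and RAD21 (positive) and on EPM2AIP1 (negative). Without the 7 genes matched by name alone, among them RAD21 and EPM2AIP1, 2 of 112 peaks (1.79%) were called. At an unadjusted p of 0.05 the member peaks numbered 11 (8.33%), against 19.9% of all peaks.

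The folds of the members were centred where those of all peaks were. The median log2 fold in the authors' deposited table was 0.14 for members and 0.14 for all peaks, with quartiles of -0.70 and 0.74 for members and -0.52 and 0.79 for all peaks. Positive folds made up 53.8% of member peaks and 55.3% of all peaks. A fold of at least 1 in size on the log2 scale was seen at 47 member peaks (35.6%, against 33.4% of all peaks), 24 positive and 23 negative, and 44 of these 47 were not called. Over all peaks 6503 of 7561 folds of that size were not called, so that large folds without a call were common in the whole list.

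**Figure D1:**
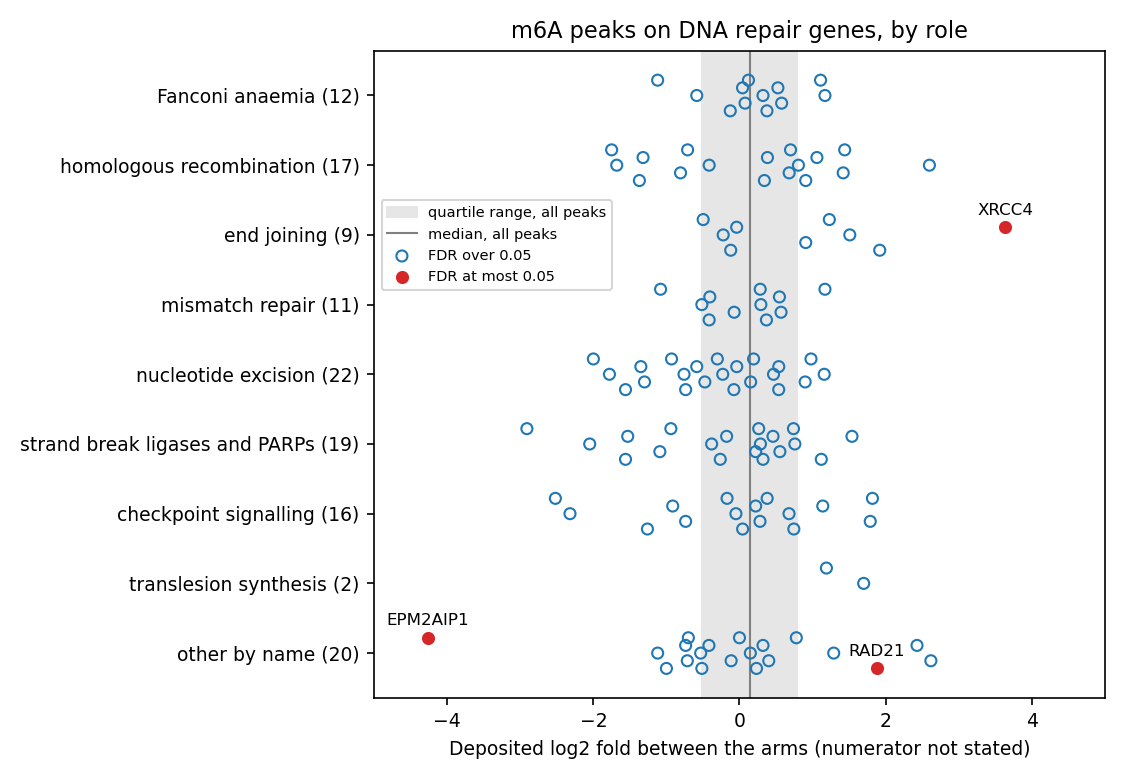
Deposited log2 fold between the arms (x axis) for 128 of the 132 member peaks, 1 circle per peak, in rows by role with the number of peaks drawn in brackets. Filled red circles mark called peaks; the grey band and line give the quartiles and the median of all 22626 peaks. XRCC4 at 3.64 and EPM2AIP1 at -4.27 lie outside the range of the uncalled member peaks, -2.91 to 2.62.

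XRCC4 encodes the scaffold that holds DNA ligase 4 at broken ends in non-homologous end joining. Its called peak had the largest positive fold of the members, 3.64 on the log2 scale (FDR 0.047, enrichment 5.34), in the authors' deposited table. The peak comprised 3 exon blocks on the plus strand of chromosome 5 (GRCh38) at 83077647 to 83077662, 83104908 to 83105058 and 83111028 to 83111098, which together hold 238 bases. For a second, weaker XRCC4 peak, over 83195902 to 83203636, the authors' deposited table gives 0.91 (FDR 0.62). Both XRCC4 folds were thus positive and the first alone was called, close to the threshold; it was lost when the p-values were doubled and adjusted again (FDR 0.092).

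RAD21 encodes the cleavable ring subunit of cohesin. Of its 3 peaks the one over 116847489 to 116848983 on chromosome 8, in 2 exon blocks, was called, and the authors' deposited table gives it a fold of 1.88 on the log2 scale (FDR 0.0069, enrichment 3.33). The others stood at 0.23 (FDR 0.50), toward the 3′ end, and at -0.42 (FDR 0.50), farther upstream, in the authors' deposited table. RAD21-AS1, the antisense gene at the start of RAD21, had a peak at 2.43 (FDR 0.37), per the authors' deposited table. The RAD21 peaks therefore did not share a sign, and none overlapped a peak of another gene.

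The negative call lay on EPM2AIP1, which encodes a partner of the glycogen phosphatase laforin and is annotated at 36985043 to 36993131 on the minus strand of chromosome 3. EPM2AIP1 carried 3 peaks. In the authors' deposited table the called one has -4.27 on the log2 scale (FDR 0.0049) and an enrichment of 23.3, with exon blocks at 36991980 to 36992268 and 36992878 to 36992940. A longer, unspliced peak at 36991513 to 36992682 stood at -1.12 (FDR 0.22, enrichment 19.5), per the authors' deposited table. Of the 352 bases of the called peak 289 also lie in this longer peak, which was not called. The same stretch of the transcript is thus listed under both folds, of which the spliced peak alone was called. The authors' deposited table gives the peak at 36991094 to 36991334 a fold of 0.32 (FDR 0.72). The longer peak and this last one stand in a second run through the chromosomes at the end of the table, which holds 565 peaks, while the called peak stands in the first.

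A further 6 member peaks had an FDR over 0.05 and at most 0.1. Calls included, 10 of 132 member peaks and 2562 of all 22626 peaks had an FDR of at most 0.1. Of those 2562 peaks 1862 were called, and the rest lay in this band. The 6 member peaks in the band are not read as a result about the members. PARP8, a mono-ADP-ribosyltransferase gene, was just outside the threshold, at 1.54 on the log2 scale (FDR 0.052), per the authors' deposited table, while XRCC4 was just inside it. PARP9 encodes the catalytically inactive partner of the ubiquitin ligase DTX3L. One PARP9 peak stood at -2.05 (FDR 0.068), per the authors' deposited table, with its centre 465 bases before the annotated end. PARP1, which senses strand breaks and builds poly(ADP-ribose), stood at 0.76 (FDR 0.076), per the authors' deposited table. RAD52, a DNA annealing factor, had a peak at 2.60 (FDR 0.081), ERCC1, a subunit of the excision nuclease, one at 0.47 (FDR 0.093) and the kinase gene ATR one at -2.52 (FDR 0.098), per the authors' deposited table. These 6 peaks carried 4 positive and 2 negative folds, and none was called.

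**Figure D2:**
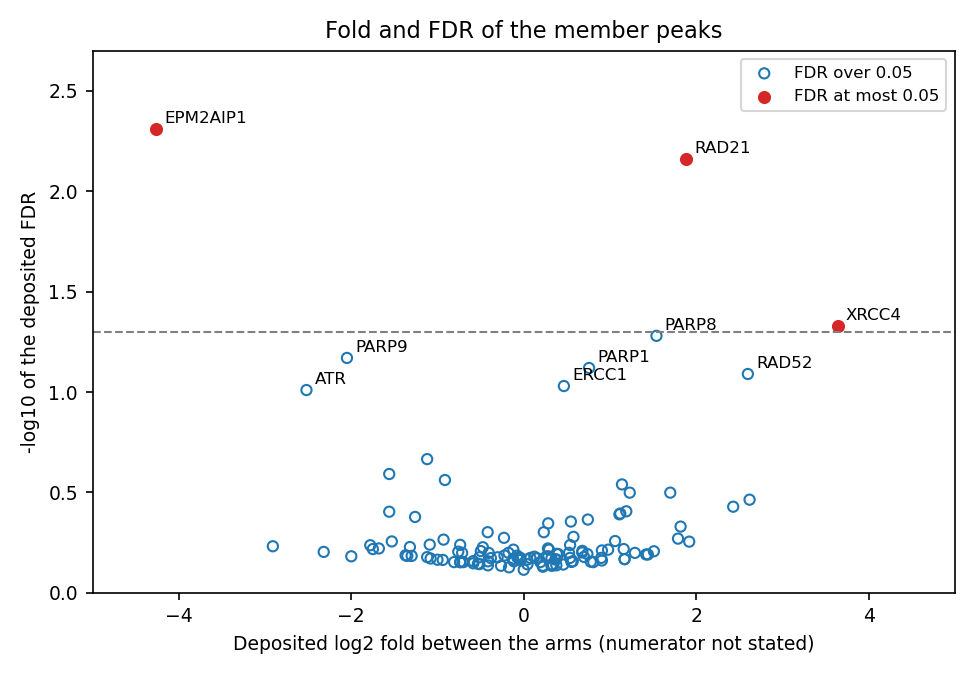
Deposited log2 fold (x axis) against -log10 of the deposited FDR (y axis) for 128 of the 132 member peaks, with the dashed line at an FDR of 0.05. The called peaks drawn (red) lie above the line and PARP8 just below it; the peaks named have an FDR of at most 0.1.

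By the p of the peak itself, members were weaker in the median than all peaks, and weak peaks were seldom called. The median log10 p of the peak was -6.21 for members and -8.2 for all peaks in the authors' deposited table. All peaks were split into 5 classes of nearly equal size by that p. The most significant class held 9 member peaks (6.82%) and the least significant class held 38 (28.8%). The share of all peaks that were called was 21.8% in the first class, 10.9% in the second, 5.10% in the third, 2.25% in the fourth and 1.0% in the fifth. Called members numbered 0 of 9, 3 of 26, 1 of 33, 0 of 26 and 0 of 38 in the same order. The strongest class thus held no called member and the second held 3, and the part of peak strength in the members' share of calls was not tested.

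**Figure D3:**
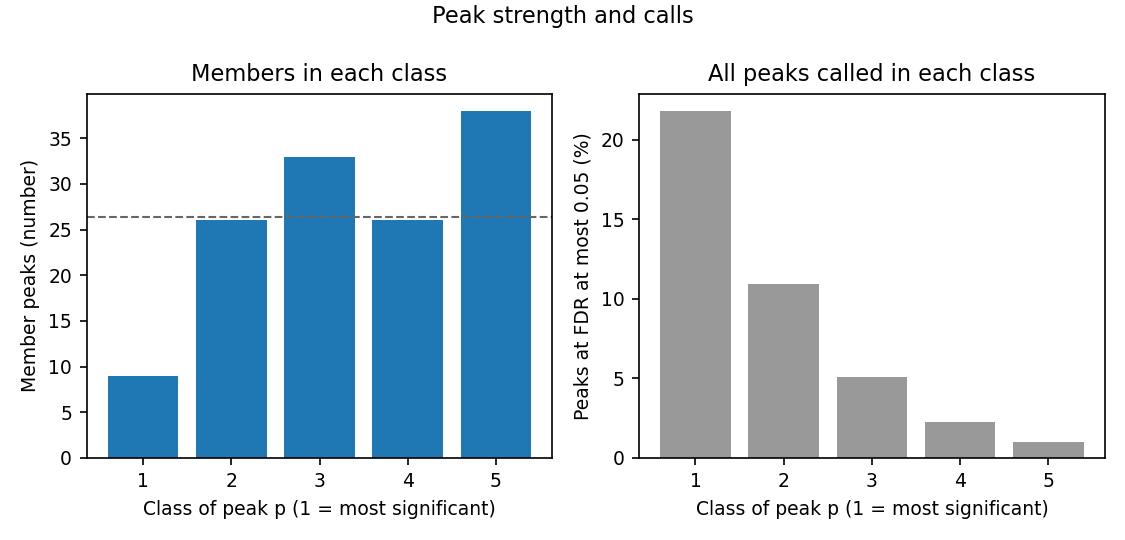
Left, the number of member peaks in each of 5 classes of the peak's own p, with a dashed line at an even spread. Right, the percentage of all peaks in the class with an FDR of at most 0.05. Members are fewest (9) in class 1, where 21.8% of all peaks were called, and most (38) in class 5, where 1.0% were.

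Enrichment did not follow the same order. Member peaks had a median enrichment of 12.4-fold (quartiles 8.37 and 17.0) against 10.1-fold (4.96 and 16.3) for all peaks in the authors' deposited table. The same peak p and enrichment recur together at another peak for 74 member peaks (56.1%), against 39.4% of all peaks. The read counts behind these ratios are unknown, so the higher median is given as a description only. The highest were PALB2 at 53.4-fold, PARP9 at 44.4-fold and the ligase gene LIG4 at 43.3-fold, and none of these 3 peaks was called. The lowest were ERCC1 at 2.20-fold, the Ku70 gene XRCC6 at 2.43-fold and RAD54L2 at 2.53-fold in the authors' deposited table. Of the called peaks, those of RAD21 and XRCC4 were among the less enriched members and EPM2AIP1 among the more enriched ones.

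The roles described from here hold 2 to 23 peaks each. With 8.23% of all peaks called, a count of 0 in so few peaks is not read as a result about a role. Among Fanconi anaemia genes, whose core complex marks crosslinked DNA for repair, 8 genes had 12 peaks and none was called. Their folds in the authors' deposited table ran from -1.12 at FANCB to 1.17 at FANCC, with 9 positive and 3 negative and a median of 0.22. The FANCC peak at 1.17 lay outside the annotated gene, with its centre at -97658 bases from the annotated start. Its peak p, enrichment, fold size and p of the difference are shared by 10 peaks, itself included. The FANCC peak at -0.59 also lay outside the gene. FANCL, the ubiquitin ligase of the complex, stood at 0.58 (FDR 0.53), and FANCI, a target of that ligase, at 0.08 (FDR 0.67), per the authors' deposited table. The core complex genes FANCE, FANCF and FANCG stood at 0.12 (FDR 0.66), 0.04 (FDR 0.68) and 0.32 (FDR 0.73), per the authors' deposited table. The smallest FDR of the group was 0.41, at a FANCA peak of 1.11. The other FANCA peak stood at -0.13 (FDR 0.68), per the authors' deposited table.

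The recombination genes had 17 peaks on 8 genes and 0 calls (8.23% of all peaks were called). BRCA1, a ubiquitin ligase and mediator of recombination, had a single peak at 0.81 (FDR 0.70, enrichment 10.1), per the authors' deposited table. BRCA2, which loads the recombinase onto single-stranded DNA, had peaks at -0.81 (FDR 0.70) and -0.42 (FDR 0.73), per the authors' deposited table. The BRCA1 peak and the first BRCA2 peak are listed with the same peak p, the same enrichment and folds of equal size and opposite sign. PALB2, the bridge between BRCA1 and BRCA2, had 3 peaks at enrichments from 20.5 to 53.4 and folds of 0.68, 0.34 and 0.38, per the authors' deposited table. All PALB2 folds were positive, and the smallest FDR among them was 0.62. RAD50, a part of the break-sensing MRN complex, has folds of 1.06, -1.68 and 1.42, per the authors' deposited table, and RAD52 has -1.75, 2.60 and -0.71 there. The recombination mediator genes RAD51C and XRCC2 differed in sign, with RAD51C at -1.32 (FDR 0.59) and XRCC2 at 0.91 (FDR 0.69) and 0.70 (FDR 0.66), per the authors' deposited table. The neighbouring RAD52 peaks near its 3′ end thus pointed in opposite directions, and neither was called.

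In end joining, 4 genes had 9 peaks, of which the XRCC4 one was called. LIG4, the ligase that XRCC4 holds in place, had a single peak of 2538 exonic bases at -0.04 (FDR 0.67), per the authors' deposited table. XRCC6 stood at -0.12 (FDR 0.61), per the authors' deposited table. TP53BP1, which shields broken ends from resection, had 5 peaks, and the authors' deposited table gives them 1.51, 1.92, -0.50, -0.22 and 1.23 from the 3′ to the 5′ side of the gene. The smallest FDR of TP53BP1 was 0.32. No peak of LIG4, XRCC6 or TP53BP1 was called.

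Mismatch repair genes had 14 peaks on 7 genes and 0 calls (8.23% of all peaks were called). MSH6, which recognises mispaired bases, carried the strongest of them, with enrichments of 20.4, 30.9 and 26.1 and log2 folds of 0.28 (FDR 0.45), -0.07 (FDR 0.67) and 0.55 (FDR 0.44), as given by the authors' deposited table. MSH3, which recognises longer loops, stood at 1.17 (FDR 0.68), per the authors' deposited table. PMS2, which nicks the strand to be repaired, stood at 0.29 (FDR 0.61), and PMS1 at -0.41 (FDR 0.63), per the authors' deposited table. MLH3 had 5 peaks between -1.08 and 0.57 in the authors' deposited table, and no FDR of MLH3 was below 0.67. The strong MSH6 peaks and the weaker peaks of MSH3, PMS1 and MLH3 alike were uncalled.

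Nucleotide excision genes had the most peaks, 23 on 10 genes. Their median fold in the authors' deposited table was -0.23, with 9 positive and 14 negative, against 0.14 for all peaks. XPC, the damage sensor, stood at -0.23 (FDR 0.53, enrichment 14.3), and ERCC2, a helicase of TFIIH, at -1.78 (FDR 0.58), per the authors' deposited table. RAD23B, a ubiquitin-binding partner of XPC, had 3 negative folds, -0.08 (FDR 0.65), -0.30 (FDR 0.67) and -0.47 (FDR 0.59), per the authors' deposited table. ERCC3, the other helicase of TFIIH, stood at -0.74 (FDR 0.70) and 0.15 (FDR 0.67), and the nuclease gene ERCC5 at -0.04 (FDR 0.69) and -0.93 (FDR 0.54), per the authors' deposited table. ERCC8, which with ERCC6 acts in transcription-coupled repair, stood at -2.0 (FDR 0.66) and -1.35 (FDR 0.65), per the authors' deposited table. ERCC4, the partner of ERCC1, has folds of 1.16, -1.56, -0.59 and 0.98 from its 5′ to its 3′ side, per the authors' deposited table. ERCC6 had 5 peaks, which the authors' deposited table places between -1.30 and 0.90. No peak of XPC, RAD23B, ERCC2, ERCC4, ERCC6 or ERCC8 was called.

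The ERCC6 peak at 49524173 to 49524623 on the minus strand of chromosome 10 (fold -0.76, FDR 0.62 in the authors' deposited table) covers the annotated start of PGBD3, a transposase gene whose sequence sits within ERCC6. RefSeq's promoter window of PGBD3 (GRCh38.p14) lies inside this peak, which makes its 300 bases readable on the strand of ERCC6. m6A is known to be written in the 5-base consensus DRACH: A, G or T, then A or G, then AC, then A, C or T. DRACH was found 8 times there on the strand of the transcript, and 97.2% of all RefSeq promoter windows of that length hold it at least once. Its best known form, GGAC followed by A, C or T, was found 1 time, and 58.7% of those windows hold it. These 3 stretches of 30 bases show the GGACC match and a pair of weaker forms within the peak, with the match in capitals, 5′ to 3′ on the transcript strand.
ERCC6, chr10:49524234-49524263, minus strand: gggggcagaggcGGACCtgtctggagatgg
ERCC6, chr10:49524318-49524347, minus strand: agaggcagagggAGACTctgagggtgaaga
ERCC6, chr10:49524413-49524442, minus strand: aagcacatcaagAAACTccagaagagggct

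Among the ligases and PARPs 10 genes had 19 peaks and 0 calls (8.23% of all peaks were called), with PARP8, PARP9 and PARP1 nearest to the threshold. LIG3, which seals single-strand breaks, had 4 peaks and the authors' deposited table gives all of them negative folds, -1.53, -0.18, -1.09 and -1.56, with a smallest FDR of 0.39. The LIG3 peak at -1.56 shared bases with an RFFL peak on the opposite strand, which stood at 0.80 (FDR 0.68). LIG1, the replicative ligase, stood at 0.46 (FDR 0.72), per the authors' deposited table. PARP14, a mono-ADP-ribosyltransferase gene, had the largest negative fold among uncalled member peaks, -2.91 (FDR 0.59), at its peak nearest to the 3′ end, and 0.22, 0.55 and -0.26 elsewhere in the authors' deposited table. The other PARP9 peaks stood at -0.38 (FDR 0.67) and 0.74 (FDR 0.64), per the authors' deposited table. PARP11 stood at -0.94 (FDR 0.69), PARP3 at 0.26 (FDR 0.66) and PARP4, the PARP of the vault particle, at 0.29 (FDR 0.66), per the authors' deposited table. PARP6 had a pair of positive folds, 0.32 (FDR 0.67) and 1.12 (FDR 0.40), in the authors' deposited table. PARP9 and PARP14 each had their most negative peak nearest to the 3′ end, and neither was called.

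Checkpoint genes had 16 peaks on 8 genes and 0 calls (8.23% of all peaks were called). ATR, the kinase that answers to single-stranded DNA, had 1 peak of 751 bases at 142562271 to 142563021 on chromosome 3 with an enrichment of 20.3 in the authors' deposited table. ATRIP, which brings ATR to damaged DNA, stood at 1.79 (FDR 0.54), and CHEK1, the kinase that ATR activates, at -2.32 (FDR 0.63), per the authors' deposited table. The folds of ATR, ATRIP and CHEK1 thus did not share a sign. MDC1, the adaptor that binds phosphorylated histone H2AX, had 4 peaks between -0.91 and 0.68 in the authors' deposited table. RAD17, the clamp loader, stood at 0.74 (FDR 0.43), and the clamp subunit gene RAD9A at 0.38, -1.26 and -0.74 in the authors' deposited table. POLH, the translesion polymerase that copies past ultraviolet lesions, had 2 positive folds, 1.70 (FDR 0.32) and 1.19 (FDR 0.39), in the authors' deposited table.

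ATM, the kinase of double-strand breaks, had peaks at -0.17 (FDR 0.75), 1.82 (FDR 0.47) and 0.22 (FDR 0.74) from its 5′ to its 3′ side in the authors' deposited table. The first lay at 108223074 to 108223224 on chromosome 11, centred 82 bases downstream of the start annotated for ATM, and a RefSeq promoter window of ATM (GRCh38.p14) covers 150 of its bases. DRACH was found 1 time in them on the transcript strand, and 87.9% of promoter windows hold it in the same stretch of 150 bases. The match is printed to show what the peak near the ATM start contains, with the 5 bases in capitals.
ATM, chr11:108223156-108223185, plus strand: ttgatactacttTGACCttccgagtgcagt

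Promoter windows also covered smaller stretches of 4 other member peaks, and DRACH was found in none of them on the strand of the member. They were 104 bases at RAD1 (79.0% of windows hold DRACH in the same stretch), 85 at ERCC6L2 (67.3%), 24 at RAD52 (27.2%) and 20 at LIG3 (21.1%). The BRIX1 window covered 110 bases of the RAD1 peak, also with 0 matches (77.5%). No match says only that these letters are not in these stretches.

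Of the genes matched by name alone, RAD54L2, a helicase gene of the SNF2 family, had the largest positive fold among uncalled member peaks, 2.62 (FDR 0.34), and another peak at -0.52 (FDR 0.67), per the authors' deposited table. ERCC6L, a helicase gene of mitotic chromosomes, had 4 peaks within a stretch of its transcript, from -0.74 to 0.78, with a smallest FDR of 0.70 in the authors' deposited table. ERCC6L2 had 5 peaks from -1.0 to 1.29, with a smallest FDR of 0.63 in the authors' deposited table. The folds of ERCC6L, ERCC6L2 and RAD54L2 thus had both signs within each gene.

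Genes with several peaks usually had folds of both signs. Of 36 member genes with more than 1 peak 24 (66.7%) had both, against 59.6% of such genes over the whole list. A single sign was found in 7 with positive folds alone (ERCC1, PALB2, PARP6, POLH, RAD1, XRCC2 and XRCC4) and in 5 with negative folds alone (BRCA2, ERCC5, ERCC8, LIG3 and RAD23B). The most peaks on a member gene were 5, on ERCC6, ERCC6L2, MLH3 and TP53BP1. A single peak was seen on 27 member genes (42.9%), against 51.6% of all genes with a peak.

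**Figure D4:**
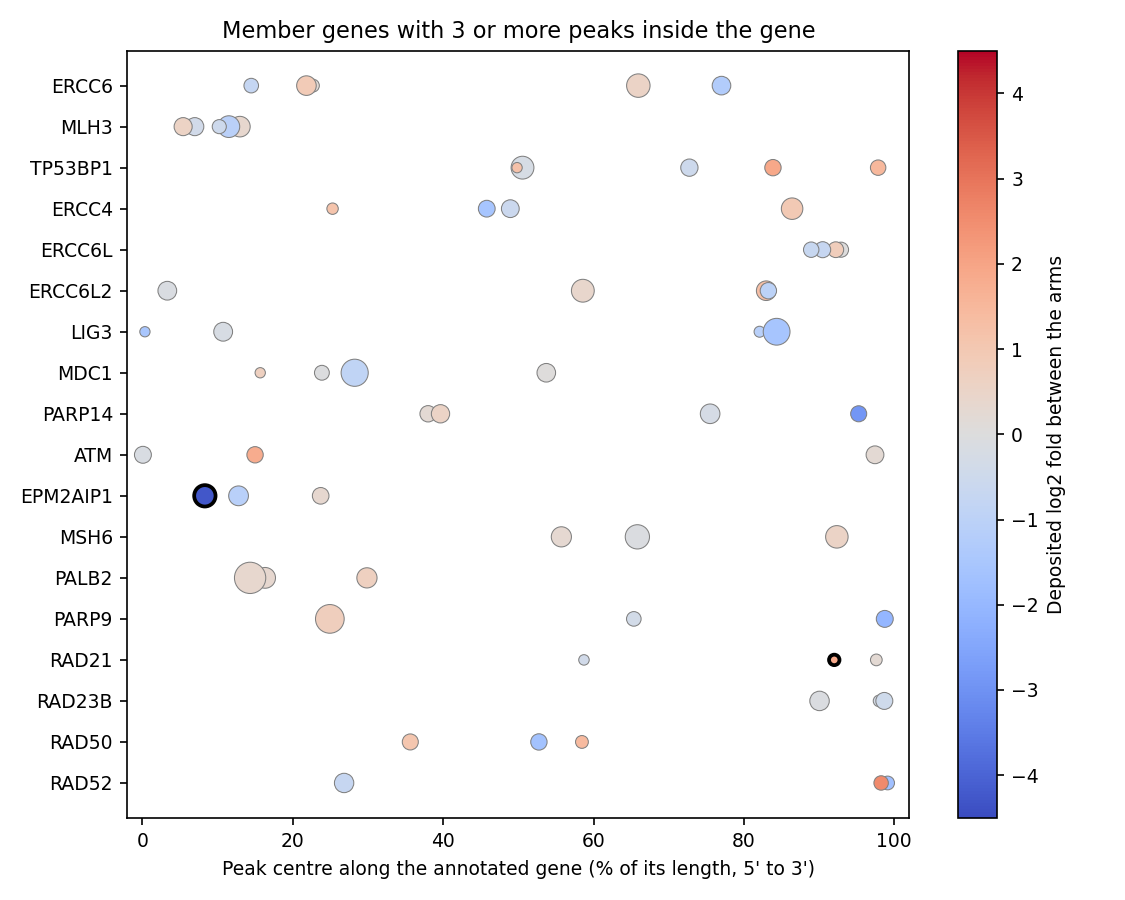
Position of peak centres along the annotated gene (x axis, percent of its length from the 5′ end) for the 18 member genes with at least 3 peaks inside the gene, 66 peaks in all. Centres are midpoints between the outer ends of a peak, introns included. Colour gives the deposited log2 fold, the size of a circle grows with enrichment and a thick outline marks the called peaks of EPM2AIP1 and RAD21. Most rows hold both colours, as 24 of 36 member genes with several peaks had folds of both signs.

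The place of member peaks along their genes was compared with that of all peaks as a description, with no test. A centre is the midpoint between the outer ends of a peak. For a peak of several exon blocks it can therefore fall in an intron. Within the bounds of the RefSeq gene lay 127 of the 132, and 20 of these (15.7%) were centred within 1000 bases of the 3′ end, against 20.2% of all peaks so matched. Near the 5′ end lay 8 (6.30%, against 8.94%). The 5 member peaks outside the bounds were listed for ERCC6L2, FANCC, RAD1 and RAD9A. The centres closest to the 3′ end were those of FANCG, at 131 bases, and MDC1-AS1, at 162 bases, followed by ERCC2 and LIG1, at 164.5 bases each, and none of these peaks was called. Peaks of at least 500 exonic bases made up 22.7% of member peaks and 24.5% of all peaks, with median lengths of 299.5 and 300 bases. The longest lay on LIG4 (2538 bases) and MSH6 (1857 bases). More than 1 exon block was listed for 38 member peaks (28.8%) and for 30.4% of all peaks.

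At 26 member peaks (19.7%, against 15.7% of all peaks) the exon blocks shared bases with a peak of another gene, 16 on the opposite strand and 10 on the same strand. Folds had the same sign in 21 of 27 such pairings, with the MDC1 and MDC1-AS1 pairs counted from each side. ERCC1 is an example. Its long peak at 45408772 to 45413986 on chromosome 19 was uncalled, while the peak listed for POLR1G on the opposite strand, at 45408766 to 45409692, was called, and the authors' deposited table gives it 0.69 (FDR 0.038). Both peaks of ERCC1 lay over POLR1G peaks, and reads of such pairs may be counted for either gene. Other overlapping pairs on opposite strands included MSH6 with FBXO11, FANCA with ZNF276, TP53BP1 with TUBGCP4, FANCI with POLG and LIG3 with RFFL. The folds of FANCI and POLG, and those of LIG3 and RFFL, had opposite signs. On the same strand were RAD54B with FSBP, ERCC5 with BIVM-ERCC5, and all RAD50 peaks with a gene model without a symbol. The RAD1 peak at 34915651 to 34915980 on chromosome 5 lay upstream of the annotated RAD1 start, with its centre at -311.5 bases, and shared bases with a BRIX1 peak on the opposite strand. None of the 4 called member peaks shared a base with a peak of another gene.

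Many repair genes carried a peak. Of 86 protein-coding genes in RefSeq whose symbol fits the pattern 61 (70.9%) had a peak, against 47.8% of all protein-coding genes. Neither share was limited to genes expressed in these cells, so the difference is not read as one of m6A. The 25 genes without a listed peak included XPA, XRCC1, CHEK2, POLQ and FANCD2, about which a list of peaks says nothing on m6A or expression.

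Other genes of repair and damage signalling were taken from a list outside the name pattern. Of 97 listed genes 81 had 152 peaks, and 8 peaks (5.26%) on 8 genes were called, 6 positive and 2 negative, beside the 8.23% of all peaks. The ubiquitin ligases RNF8 and RNF168, which act in turn on chromatin around a break, each had a called positive peak. These stood at 2.05 (FDR 0.015) and 1.91 (FDR 0.013), per the authors' deposited table. SEM1, a small partner of BRCA2 and the proteasome, stood at 1.54 (FDR 0.00062), and PRKDC, the kinase of end joining, at 1.11 (FDR 0.036), per the authors' deposited table. CDC25B, a phosphatase of mitotic entry, stood at 1.02 (FDR 0.00069), and APEX1, the abasic site nuclease, at 0.86 (FDR 4.2e-07), per the authors' deposited table. Negative were MAD2L2, a subunit of polymerase zeta and shieldin, at -0.84 (FDR 0.017), and the glycosylase gene MPG at -1.45 (FDR 0.0046), per the authors' deposited table. The MPG peak shared bases with a peak of another gene. The values given for these 8 genes are those of the called peaks alone. RNF8 has 2 peaks in all, RNF168 4, PRKDC 3 and APEX1 2, and their other peaks were not called.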

How the data were processed

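The study's 8 libraries (m6A IP and input of HCT116 cells in 2 arms) enter as 1 deposited list of peaks. GRCh38, HOMER 4.9.1 and BWA 0.7.12 are named, without roles or order, in the submitters' processing notes. Peak caller and comparison method: not given in the sources used here. Per the labels' protocols, more than 1 anti-m6A antibody and fragment size are described. Per the file headers, the authors deposited for each peak a p-value, its log10 value and FDR (score columns), a fold enrichment (a ratio), and a log2 fold between the arms with log10 p and FDR (scores). Nothing was refitted. Members and lists were chosen with earlier results of these data known. The named genes are members with a called peak, the 5 extreme folds of either sign among uncalled member peaks (1 per gene), the 5 members with the most peaks (4 tied at the top were named), the 3 highest and 3 lowest enrichments, the best known genes of their roles and called genes of the list of other repair genes. Further members were named after their values were seen. Some members count in totals but their own values are not reported here or drawn by peak. Python 3.11.15, numpy 2.4.6, pandas 2.3.3 and scipy 1.17.1 were used, and the adjustment and overlap steps were tested on simulated data. Peaks were placed on GRCh38.p14 RefSeq genes by symbol, with coordinates counted from 1. Exon blocks sharing at least 1 base on either strand counted as overlapping. RefSeq promoter windows (250 bases before to 50 after the start) were found for 55 of 63 members; windows were searched on the peak's strand only. Exonic, intronic and untranslated annotation and library depth were not used here. Alternatives changed the call rule, merged loci, took 1 peak per gene or left peaks out.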

Additional observations from a re-analysis of the deposited data

How the results depend on the processing

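The counts of 3 positive and 1 negative called member peaks (3.03%) moved by over 1.5 times under some call rules. At an FDR of 0.01 the positive count was 1, and 1.52% of member peaks were called, against 4.99% of all peaks. At an unadjusted p of 0.05 there were 7 positive and 4 negative peaks (8.33%). With 1 peak per gene, the negative count was 0, since the longer EPM2AIP1 peak has the smaller peak p, and the median enrichment was 14.3. Without the 7 genes matched by name alone, an alternative chosen after seeing the data, the negative count was 0. Doubling p left 2 positive and 1 negative peaks, as the XRCC4 call was lost (FDR 0.092). Narrowing the window at the 3′ end from 1000 to 500 bases gave 8.66%, against 11.1% of all peaks. Recentring the folds, merging loci, and asking for a peak p of at most 1e-05 or an enrichment of at least 2 gave the same 3 and 1 calls. Under every alternative run the members' percentage called was below that of all peaks, and their median log2 fold ran from 0.14 to 0.23. No paired analysis was possible because the file holds no values per library, and leaving out a replicate or fitting a replicate block was not run for the same reason. Of the alternatives 48 left a value within its limits, 8 moved one and 1 ended a call. The limits were not alike for every kind of value. A fall of the percentage called from 3.03 to 1.52 counted as within them, while a median enrichment of 14.3 instead of 12.4 counted as moved. The 48 are therefore not read as a measure of stability.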

Other observations

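Some peaks carry identical values in the authors' deposited table. The peak p, the enrichment, the size of the fold and the p of the difference all recur at another peak for 20 member peaks (15.2%), against 7.54% of all peaks. The values of the BRCA1 peak (log10 peak p -2.58, enrichment 10.1, fold size 0.81) are shared by 15 peaks, itself and 1 on BRCA2 included, and that peak p and enrichment alone by 140 peaks. An ERCC6L peak with the same peak p and enrichment has a fold of exactly 0. These groups of peaks were picked after their values were seen, and the counts behind them were not analysed here.

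Of the 6 pseudogene peaks left out, 1 was called. XRCC6P2, a copy of the Ku70 gene XRCC6 on chromosome X, carries a peak at 150232568 to 150232836, for which the authors' deposited table gives a log2 fold of 1.48 (FDR 2.5e-13) and an enrichment of 1.99. The authors' deposited table gives -0.12 (FDR 0.61) for XRCC6 itself and 0.11 (FDR 0.65) for the other XRCC6P2 peak. Whether reads of the gene were placed on its copy was not tested, and the values of both are given as uncertain.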
